A study of Solanum lycopersicum with 18 samples.

Results

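Lycopene cyclases and carotene hydroxylases form the branch of the carotenoid pathway that consumes lycopene, the red pigment of ripe tomato. ε-Cyclase and β-cyclase close the ends of lycopene to give α-carotene and β-carotene, and the hydroxylases turn carotenes into xanthophylls such as lutein and zeaxanthin. Ripening tomato fruit accumulates lycopene because its synthesis is raised while cyclization is held low. N6-methyladenosine (m6A) is a methyl mark on adenosines of mRNA, which in plants and animals is found mainly around the stop codon and in the 3′ UTR.

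The 5 genes described here were chosen by name. They are *LCYE* (Solyc12g008980, lycopene ε-cyclase), *LCYB1* (Solyc04g040190, the lycopene β-cyclase of green tissues), *CYCB* (Solyc06g074240, the chromoplast-specific lycopene β-cyclase known as the *Beta* locus), *CRTR-B1* (Solyc06g036260, a β-carotene hydroxylase) and *CRTR-B2* (Solyc03g007960, the β-carotene hydroxylase active in flowers). Their peaks were found as the lines of the 9 m6A peak lists whose overlapped gene was one of the 5. The lists name 11176 genes with a peak, and 1 of the 5 genes, *CYCB*, was among them, by a peak shared with a second gene.

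The material was pericarp of greenhouse-grown tomato fruit. Wild-type fruit of the cultivar Ailsa Craig was sampled at 39 days post-anthesis (DPA, mature green) and at 42 DPA (breaker, the onset of colour change), and fruit of the Colorless non-ripening mutant (*Cnr*), a stable epimutant whose fruit does not ripen, at 42 DPA. Each group had 3 replicates, and each replicate was sequenced as an m6A-immunoprecipitated (IP) library and an input library, which gives 18 libraries and 9 peak lists. According to the methods of the study, each RNA came from a mixture of at least 30 fruits, so the replicates do not show the spread between single fruits. Peak lists hold no transcript level for a gene without a peak. *Cnr* and wild type at 42 DPA have the same age but not the same ripening state, and these cannot be told apart in a comparison between them.

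Each list held 9246 to 10407 peaks with 9557 to 10823 summits, and the median summit rested on 392.0 to 500.0 IP fragments. The median fold enrichment of a library was 5.02 to 5.64 in the 6 wild-type libraries and 7.15, 5.78 and 7.67 in *Cnr* replicates 1, 2 and 3, so *Cnr* replicate 2 stood close to the wild type. Among ripening genes, the MADS-box genes *FUL1*, *FUL2* and *TAGL1* and the ethylene receptor gene *NR* had a peak in 9 of 9 lists, *RIN* in 8 and *NOR* in 7. The fruit ripening gene *E8* had none and the polygalacturonase gene *PG2a* had 1. *SPL-CNR* (Solyc02g077920), the gene affected by the *Cnr* epimutation, had no peak in any list, so the *Cnr* label could not be checked on it.

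No peak was called in *LCYE*, *LCYB1*, *CRTR-B1* or *CRTR-B2* in any of the 9 lists. Each of these genes had a peak in 0 of 3 replicates at 39 DPA, 0 of 3 at 42 DPA and 0 of 3 in *Cnr*. A peak overlapping the *CYCB* gene model was called in 3 of 3 replicates of every group, with 1 line per list and 9 lines in all. The same peak carried a line for a second gene, Solyc06g074250, in 9 of 9 lists, so it cannot be assigned to *CYCB*. A minimum enrichment of 2-fold or a minimum −log10 q-value of 10 could not change these counts. The *CYCB* summits lay far above both, at 8.35 and 816 or more, and a stricter filter adds no peaks. For scale, of all genes named with a peak in any list, 8224 (73.6%) had one in all 9.

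The absence of a peak has a detection limit. Over the 92068 summits whose IP number was recovered as a whole number with a background not below the floor, the lowest number of IP fragments was between 70 and 78 in the 9 libraries, which is 1.52 to 1.66 times the floor of the library. The other 129 summits were left out of this limit, among them 3 with a recovered background below the floor, and the lowest IP number recovered at any summit was 10.3. The floor, 44.6 to 51.1 fragments, is the background that MACS, the peak caller, expects where the input is low. A transcript with few fragments in the IP stays below that limit whether or not it is methylated, so little or no m6A and a low transcript level cannot be told apart for these 4 genes. The gene models used by the authors could not be checked here. Whether they hold *CRTR-B1* and *CRTR-B2*, and whether those of the 4 genes reach the 3′ end of the transcript, was not tested.

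Both cyclase genes without a peak were still named in the lists as the next gene downstream of a peak in another gene. *LCYB1*, on chromosome 4, started 4728 to 4759 bases from the centre of a peak in Solyc04g040200, which was present in 9 of 9 lists with a fold enrichment of 6.71 to 9.45. *LCYE*, on chromosome 12, started 13401 to 13410 bases from the centre of a peak in Solyc12g008970, present in 9 of 9 lists with a fold enrichment of 7.29 to 12.97. Peaks were thus called in the transcripts next to both genes. For the hydroxylase genes *CRTR-B1* on chromosome 6 and *CRTR-B2* on chromosome 3 the lists give no neighbouring peak, since neither identifier appears in any annotation column.

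**Figure D1:**
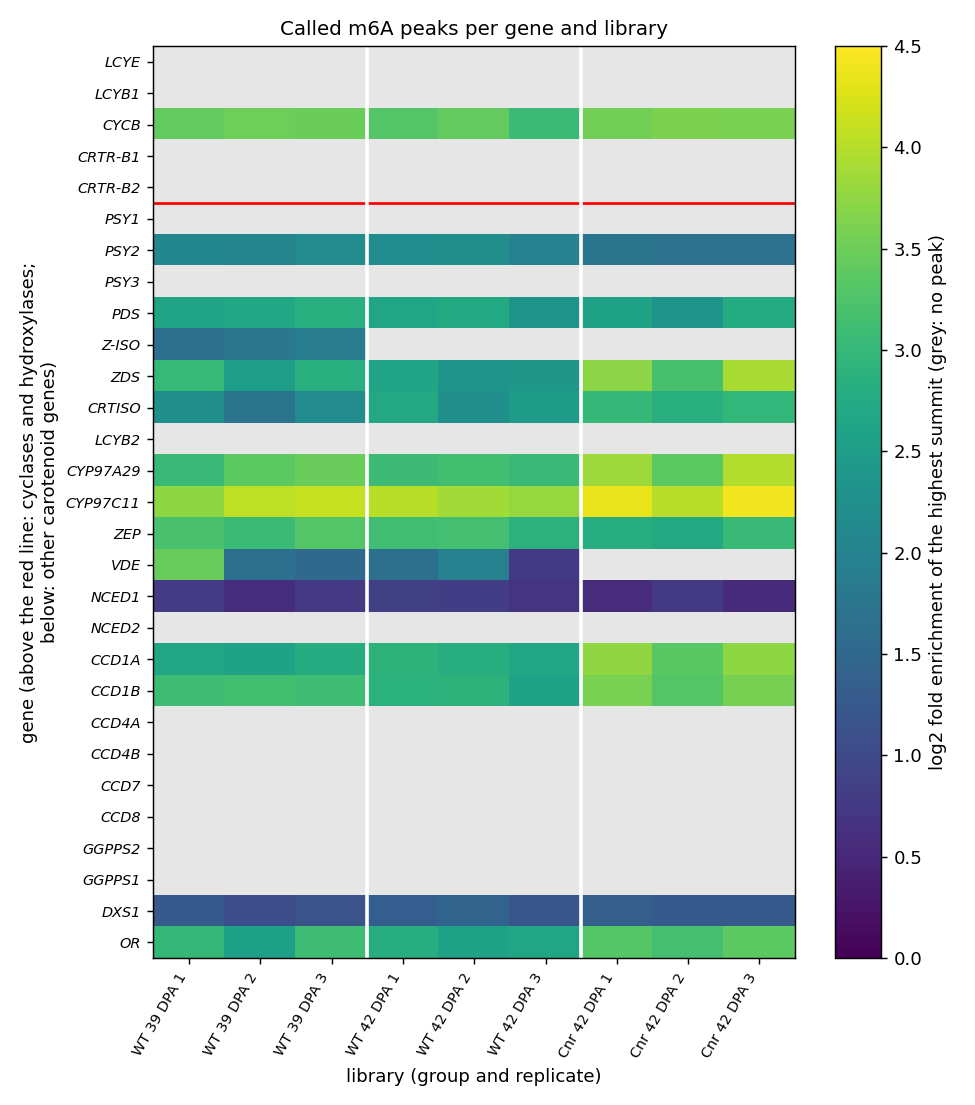
Called m6A peaks in the 5 cyclase and hydroxylase genes (above the red line) and in 24 other carotenoid genes (below), by library. Colour gives the log2 fold enrichment of the highest summit and grey the absence of a peak. Of the upper 5 rows only that of *CYCB* is filled, in all 9 columns, by a peak that is also at the end of Solyc06g074250. The bright *VDE* cell at 39 DPA replicate 1 is a peak that also covers the main peak of the neighbouring gene Solyc04g050920.

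The *CYCB* peak lay on chromosome 6 of the SL3.0 genome, between 46042031 and 46042461 over all libraries, and was 395 to 429 bases wide. Positions 46042045 to 46042437 were covered in every library. The 9 summits fell between 46042247 and 46042257, within 10 bases of each other in all replicates of all groups.

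The peak cannot be assigned to *CYCB*. In 9 of 9 lists its beginning, centre and end were all labelled intron 4 of Solyc06g074240, which means that the gene model used has at least 5 exons. In the same 9 lists the same peak also carried a line for a second gene, Solyc06g074250, with its beginning in the last exon, its centre in the 3′ UTR and its end past the gene. The library kit does not keep the strand, so reads from both transcripts fall together. The gene ontology terms printed with the peak, transport and integral component of membrane, were the same on both lines. *LCYE* and *LCYB1* carried the term carotenoid biosynthetic process in the lists, which the line of Solyc06g074240 did not. The name *CYCB* thus rests on the identifier and is not borne out by these terms. A peak wholly within 1 intron was uncommon, at 2.51% to 2.83% of the summits of a library, and between 44.0% and 48.8% of these also covered the end of another gene. Every value that follows therefore belongs to the region of *CYCB* and Solyc06g074250 together.

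Fold enrichment, the ratio of IP fragments at the summit to the background, was 10.7, 11.4 and 11.3 in wild-type replicates 1, 2 and 3 at 39 DPA. It was 9.86, 10.6 and 8.35 at 42 DPA. In *Cnr* it was 11.6, 12.2 and 12.2. The group means were 11.1 ± 0.350 at 39 DPA, 9.62 ± 1.17 at 42 DPA and 12.0 ± 0.306 in *Cnr* (SD, n = 3 each). The order was thus wild type at 42 DPA, wild type at 39 DPA and *Cnr*, from low to high, and the values of the groups did not overlap, although the nearest replicates of neighbouring groups lay close together. Of all regions, 18.0% were lower without overlap at 42 than at 39 DPA, and 48.2% higher in *Cnr* than at 42 DPA. For *Cnr* against 39 DPA and for the full order no share was counted. Wild-type replicate 3 at 42 DPA was the lowest of all, and that library also had the lowest median enrichment over its summits. Within its own library the region ranked at the 73.5th to the 88.6th percentile of enrichment, above most summits.

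The region's enrichment rests on many fragments. The IP held 1665, 1772 and 1868 fragments at the summit at 39 DPA, 1722, 1793 and 1510 at 42 DPA, and 2786, 2404 and 2693 in *Cnr*. The background was above the floor in all 9 libraries and so follows the local input level. The lists do not say how wide a stretch of input this background covers. Transcripts of genes nearby may thus enter it, and it is no direct measure of transcript abundance at the region. In multiples of the floor of the library, this input level was 3.04, 3.02 and 3.32 at 39 DPA, 3.56, 3.52 and 3.54 at 42 DPA, and 4.89, 4.37 and 4.94 in *Cnr*. It was lowest at 39 DPA and highest in *Cnr*, with no overlap between groups. Of all regions above the floor, 39.0% were higher without overlap at 42 than at 39 DPA, and 39.9% in *Cnr* than at 42 DPA. For the full order no share was counted. In a pericarp sample, fewer cells that hold a transcript and less of it per cell cannot be told apart.

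**Figure D2:**
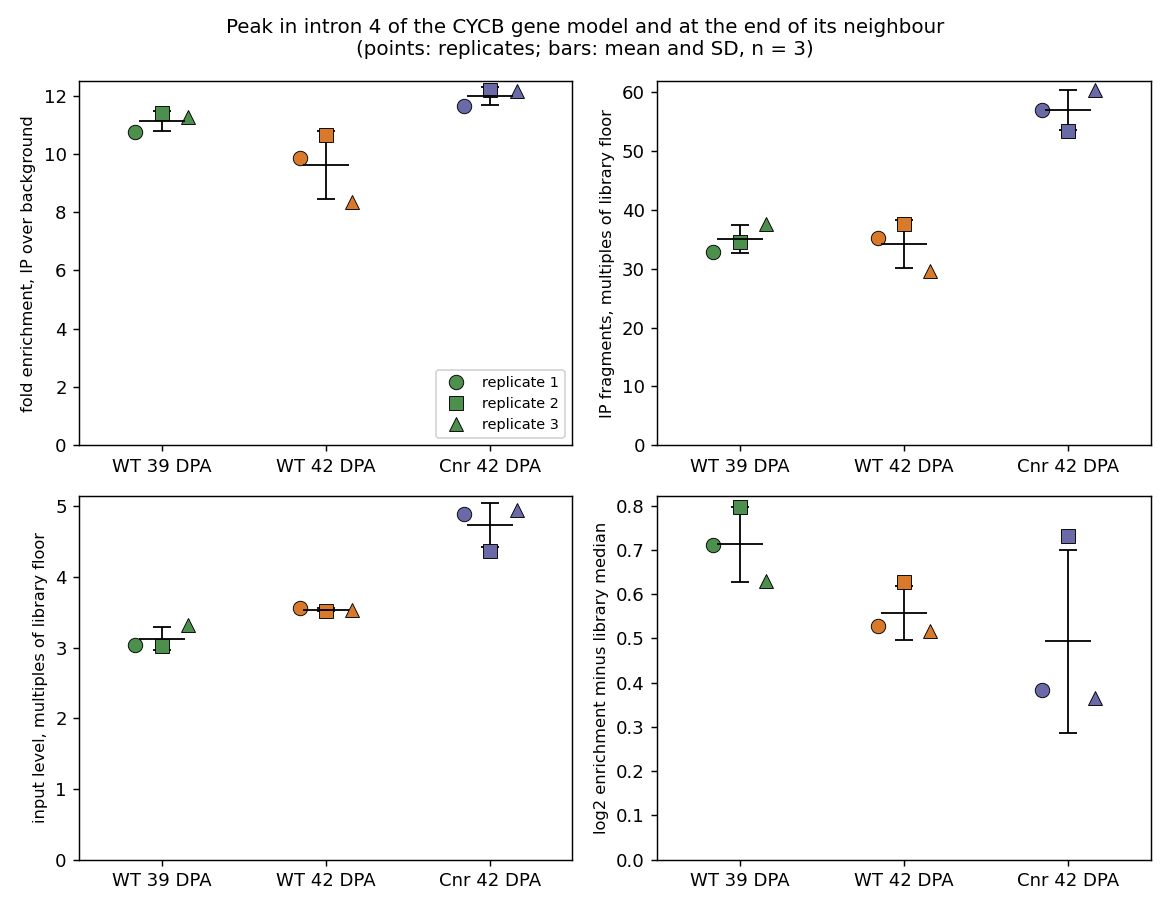
Values of the peak region of *CYCB* and Solyc06g074250 in each replicate, with group mean and SD (n = 3): fold enrichment, IP fragments and input level (both in multiples of the floor of the library), and log2 enrichment after subtraction of the library median. The *Cnr* replicates are highest for fold enrichment, IP and input, and overlap the wild type once the library median is subtracted.

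Between 39 and 42 DPA in the wild type, the question was whether m6A at these genes differs at the onset of ripening. At 42 DPA the log2 enrichment of the *CYCB* region differed from that at 39 DPA by −0.22, or 0.860-fold, with a standard error of 0.139 and a 95% interval of −0.49 to 0.055. It did not pass the test (unadjusted p = 0.118, BH-adjusted p = 0.318, limma over 8550 regions), for which a 1.5-fold change and an unadjusted p-value under 0.05 were required. Of all regions, 1.54% were called higher and 3.01% lower at 42 DPA (2.13% and 2.08% after each library was centred on its median). All 3 values at 42 DPA lay below all 3 at 39 DPA, as in 18.0% of all regions. In an exact permutation test of the fold enrichment, two-sided, p was 0.1, which is the lowest value reachable with 3 against 3 replicates. The median log2 change over all regions was −0.048.

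The input level of the region was higher at 42 DPA than at 39 DPA by 0.18 on the log2 scale, which is 1.13-fold (BH-adjusted p = 0.00834, limma over 4510 regions above the floor). The groups did not overlap, as in 39.0% of all regions in that direction. By the same criterion, a BH-adjusted p-value under 0.05, 37.1% of all regions had a higher and 41.7% a lower input level. The IP signal over the floor did not pass the test, with a log2 change of −0.039 (BH-adjusted p = 0.864, limma). Its groups overlapped, at 32.8, 34.6 and 37.6 multiples of the floor at 39 DPA and 35.2, 37.7 and 29.7 at 42 DPA.

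Between *Cnr* and wild-type fruit at 42 DPA, the question was whether m6A differs in fruit that does not ripen. The log2 enrichment of the *CYCB* region was higher in *Cnr* by 0.33, or 1.25-fold, with a standard error of 0.173 and a 95% interval of −0.014 to 0.67. It did not pass the test (unadjusted p = 0.0604, BH-adjusted p = 0.103, limma over 8007 regions). By that test 25.2% of all regions were called higher and 1.91% lower in *Cnr* (5.42% and 7.93% after centring). All 3 *Cnr* values lay above all 3 wild-type values, as did those of 48.2% of all regions, and the exact two-sided p was again 0.1 by permutation. The region's change was close to the median over all regions, 0.36, and 83.4% of the regions were higher in *Cnr*. After the median of each library was subtracted, the change turned to −0.063 (BH-adjusted p = 0.652, limma). The centred values were 0.53, 0.63 and 0.52 in the wild type at 42 DPA and 0.38, 0.73 and 0.37 in *Cnr*, where replicate 2 was the highest of the 3 and the others lay below the wild type.

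The IP signal and the input of the region were both higher in *Cnr*. The IP signal was 57.1, 53.5 and 60.3 multiples of the floor in *Cnr* and 35.2, 37.7 and 29.7 in the wild type at 42 DPA. This is a log2 change of 0.74, or 1.67-fold (BH-adjusted p = 3.08e-05, limma over 8007 regions), and it passed the test by which 31.9% of all regions had a higher IP signal. That p-value rests on a spread pooled over regions. The input level rose by 0.42 on the log2 scale, or 1.34-fold (BH-adjusted p = 0.000562, limma over 3940 regions above the floor), where 38.9% of the regions were higher and 43.3% lower by the adjusted p-value. All 3 *Cnr* input levels lay above the wild type, as in 39.9% of these regions. Without *Cnr* replicate 2, the library that stood close to the wild type, the log2 change was 0.31 for enrichment (BH-adjusted p = 0.0474, limma), again less than 1.5-fold, and 0.47 for the input.

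**Figure D3:**
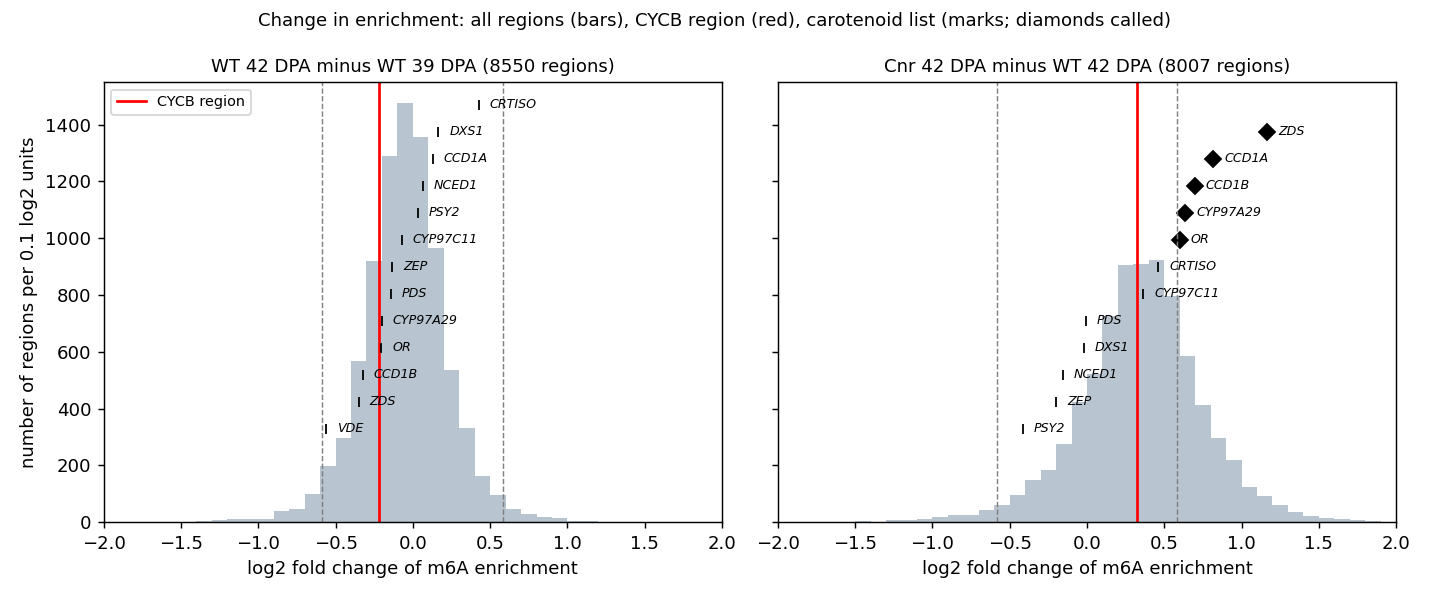
Number of regions by log2 fold change of enrichment for both comparisons, with the region of *CYCB* and Solyc06g074250 as a red line and the regions of other carotenoid genes as marks (diamonds: called, height without meaning). Dashed lines stand at a 1.5-fold change in either direction. The red line is at −0.22 for 42 against 39 DPA and at 0.33, near the middle of all regions, for *Cnr* against wild type. The *VDE* mark belongs to a region joined with the main peak of Solyc04g050920.

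Other genes of the carotenoid pathway were read from a list of 24. Of these, 12 had a peak in all 9 lists, 2 in some and 10 in none. The 2 with a partial pattern were *Z-ISO* (ζ-carotene isomerase), with a peak in 3 of 3 replicates at 39 DPA (fold enrichment 3.07, 3.45 and 3.76) and none elsewhere, and *VDE* (violaxanthin de-epoxidase), with a peak in 6 of 6 wild-type libraries and 0 of 3 in *Cnr*. In all 6 the *VDE* peak also carried a line for Solyc04g050920, so it cannot be assigned to *VDE*. The 10 without a peak included *PSY1*, the fruit phytoene synthase that opens the pathway, and *LCYB2*, a further lycopene β-cyclase gene. Lack of a peak was thus shared by 4 of the 5 genes described here and 10 of the 24 others, with the same limit of detection. The peak at the remaining gene, *CYCB*, cannot be assigned to it.

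The carotene hydroxylases of the cytochrome P450 type did carry peaks, unlike *CRTR-B1* and *CRTR-B2*, which belong to a different enzyme family. *CYP97A29*, a β-ring hydroxylase, had a peak over the last exon and 3′ UTR with an enrichment of 9.87 ± 1.53 at 39 DPA, 8.51 ± 0.260 at 42 DPA and 13.4 ± 2.80 in *Cnr* (SD, n = 3 each). *CYP97C11*, an ε-ring hydroxylase of the lutein branch, had the highest enrichment of the carotenoid genes with a peak in each of the 3 groups, 15.7 ± 2.09, 14.9 ± 1.14 and 19.3 ± 2.73 in the same order. Its peak began in the last intron and was centred past the annotated end of the gene. Of these, *CYP97A29* was called higher in *Cnr* than in wild type at 42 DPA, by 0.64 on the log2 scale (BH-adjusted p = 0.00109, limma). The call was lost with each library centred on its median (0.25, BH-adjusted p = 0.0556, limma) and without *Cnr* replicate 1 or replicate 3. Its background was on the floor in all 6 libraries of that comparison, so its enrichment follows the IP signal alone.

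Between 39 and 42 DPA, 0 of the 13 regions of the list were called higher and 0 lower, while 4 had an unadjusted p-value under 0.05 and 2 a BH-adjusted p-value under 0.05 (limma; 15.4% of all regions). Their median log2 change was −0.13, beside −0.048 over all regions. One of the 2 is *CRTISO*, the carotenoid isomerase that makes all-trans-lycopene, with 0.43 at 42 DPA against 39 DPA (BH-adjusted p = 0.0185, limma). Its background was on the floor at 39 DPA and above it at 42 DPA. The other is the region of *VDE*, at −0.56 (BH-adjusted p = 0.00105, limma). There a broad peak of replicate 1 at 39 DPA joins the site of *VDE* with the stronger peak of Solyc04g050920, and the value comes from the latter.

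Between *Cnr* and wild type at 42 DPA, 5 of 12 regions were called higher and 0 lower (25.2% and 1.91% of all regions), with a median log2 change of 0.41, beside 0.36 over all regions. They were those of *ZDS* (ζ-carotene desaturase) at 1.17, the carotenoid cleavage dioxygenase genes *CCD1A* at 0.82 and *CCD1B* at 0.70, *CYP97A29* at 0.64, and *OR*, a chaperone of phytoene synthase, at 0.60, in a region shared with Solyc03g093840. With each library centred on its median, 1 was higher (*ZDS*) and 2 were lower (*PSY2*, a phytoene synthase gene, and *ZEP*, zeaxanthin epoxidase). The background of *CCD1A* and *PSY2* was on the floor in all 6 libraries, so their enrichment follows the IP signal alone. That of *ZEP* was on the floor in the 3 *Cnr* libraries. Without *Cnr* replicate 3, 3 of the 5 were called, those of *ZDS*, *CCD1A* and *CCD1B*.

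The input level of the *CYCB* region and that of most of the list moved in opposite directions in *Cnr*, a difference given as a description that was not tested. Of the 7 list regions with an input level above the floor in all 6 libraries, 6 had a lower input level in *Cnr* and 1 a higher one by a BH-adjusted p-value under 0.05 (limma), beside 43.3% lower and 38.9% higher among all regions. The log2 input change was −1.36 for *ZDS*, −1.10 for *CCD1B*, −1.02 for *OR*, −0.97 for *DXS1* (the entry enzyme of the plastid isoprenoid pathway), −0.85 for *PDS* (phytoene desaturase) and −0.16 for *CYP97C11*. *NCED1*, a cleavage enzyme of abscisic acid synthesis, rose by 0.82, and the *CYCB* region by 0.42. In *ZDS*, enrichment was 6.20, 4.998 and 5.19 in wild-type replicates 1, 2 and 3 at 42 DPA and 13.1, 9.18 and 15.1 in *Cnr*, without overlap. Between 39 and 42 DPA, 7 of 8 such regions had a higher input level at 42 DPA and 1, *NCED1*, a lower one (37.1% and 41.7% of all regions), and the *CYCB* region was higher as well.

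The regions annotated to 1 gene whose enrichment pattern was most like that of the *CYCB* region were sought over the 9 libraries. Among 6468 such regions, the highest Pearson's r of the centred log2 enrichment was 0.967 for Solyc02g092440, 0.961 for Solyc10g007840 and 0.957 for Solyc03g096860. The geometric mean enrichment of Solyc02g092440, not centred, was 4.65 at 39 DPA, 4.17 at 42 DPA and 5.09 in *Cnr*. This is the order of groups of the uncentred *CYCB* region, at a lower level. The match itself was made on centred values, in which the *Cnr* replicates of the *CYCB* region overlap the wild type. These 3 were picked as the most alike, so their r is a description, and all regions of a library share its IP and input.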

How the data were processed

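According to the submitters' notes and the study's methods, the authors trimmed the reads, aligned them to SL3.0 with BWA and called peaks in each IP library against its input with MACS at a false discovery rate under 0.05, then annotated them with PeakAnnotator. Trimmomatic 0.30, cutadapt 1.16 and FastQC 0.11.7 are named in the notes. The deposited fold enrichment is the ratio of IP fragments to background at a summit. The deposited score and the −log10 p-values and q-values were made by the authors with MACS. Where the −log10 column names were lost, in 2 lists, the columns were taken by position and compared with the score. Starts, counted from 0 in such lists, were raised by 1.

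Solving the fold enrichment and −log10 p-value for IP fragments and background under the Poisson model of MACS succeeded for 92196 of 92197 summits, and 99.9% of the IP numbers came out whole within 0.1. Background within 0.1 of the most frequent value of a library was taken as on the floor. Lines are repeated for each overlapped gene. Depth per library is known only through these fragments.

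Peaks sharing at least 1 bp were merged, the highest summit of a library was used, and limma 3.58.1 (R 4.3.3) was run, without a pseudocount, on the log2 enrichment of regions called in each of the 6 libraries compared. The BH adjustment covered all regions. In the main uncentred enrichment fits limma gave all regions the same standard error, so those p-values rest on a spread pooled over regions rather than on a region's own replicates. The p-values of the IP signal over the floor rest on such a pooled spread too. In the input and centred fits the standard error differed between regions. It also differed in the enrichment fit of *Cnr* against wild type without 42 DPA wild-type replicate 3. The study describes its replicates as biologically independent, with mRNA prepared separately for each. The labels do not say whether replicates are separate harvests, and p-values measure only the spread between these samples. Python 3.11.15, numpy 2.4.6, pandas 2.3.3 and scipy 1.17.1 gave the other values. Scripts were tested on simulated data.

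The 5 genes and the lists were chosen with earlier results of these data known. Named are the 5 genes, carotenoid genes with a called region, *PSY1*, *PDS*, *ZDS*, *CRTISO*, *ZEP*, the P450 hydroxylases and the 3 regions most alike. Genes named besides (*Z-ISO*, *VDE*, *LCYB2*, *PSY2*, *DXS1* and *NCED1*) were chosen after their values were seen. As a pairing check, deviations of same-numbered replicates from their group means were correlated. For *Cnr* and wild type at 42 DPA, r was 0.184, 0.442 and 0.341, all over 0.1, so a fit blocked on the replicate number was run too, although nothing says what the number marks. Alternatives varied centring, block, call rule, peaks kept, overlap, summit, libraries fitted, quantity and replicates. No sequence is shown, since no genome was used here.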

Additional observations from a re-analysis of the deposited data

How the results depend on the processing

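For 42 against 39 DPA, the enrichment of the *CYCB* region stayed negative and uncalled under all 16 alternatives run, from −0.29 to −0.12 with each replicate left out. For *Cnr* against wild type, 14 of 16 alternatives gave the same direction and no call, from 0.23 to 0.40 with each replicate left out. Library median centring turned it to −0.063, and IP fragments over the floor gave 0.74, a call. In both comparisons the block, call rules, peak filters, overlap rule, mean over summits and fit of all 9 libraries returned the main estimate unchanged. With 1 strong summit per list these settings could not move it, so they are no check on its size. The input changes kept their sign and call, at 0.15 to 0.22 and 0.39 to 0.47 with each replicate left out.

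With the replicate number as a block, the enrichment changes of the region were −0.22 (BH-adjusted p = 0.415, limma) and 0.33 (BH-adjusted p = 0.149), and no call changed. The block for the input was added after the data were seen and gave 0.18 and 0.42. Between 39 and 42 DPA same-numbered replicates had an r of 0.23, 0.34 and 0.085, not all over 0.1. Pairs of different number ranged from −0.36 to 0.17, and what the number marks is not known.

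In the carotenoid list, a BH-adjusted p under 0.05 alone gave 1 region higher and 1 lower at 42 DPA, and 6 higher and 1 lower in *Cnr*. Leaving out replicates gave 0 to 1 lower at 42 DPA (the *VDE* region, without 39 DPA replicate 2 or 42 DPA replicate 1) and 3 to 5 higher in *Cnr*. Centring gave 1 higher and 2 lower in *Cnr*. The cause was not tested.

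Input levels of replicates 1 and 3 differed by a median of 0.016 to 0.022 on the log2 scale, and pairs with replicate 2 by 0.035 to 0.059, and whether the inputs are independent, as the p-values of the input level assume, was not tested.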

Other observations

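The input level at the peaks of ripening genes was set beside that of the *CYCB* region, which was higher in *Cnr* by 0.42 on the log2 scale. Of the ripening genes listed, 5 had regions with an input level above the floor in all 6 libraries of *Cnr* and wild type at 42 DPA. All 6 of their regions were lower in *Cnr* by a BH-adjusted p-value under 0.05 (limma), as were 43.3% of all regions. The log2 change was −2.76 for *FUL1*, −1.55 for *NR*, −1.13 for *FUL2*, −0.95 and −0.92 for the 2 regions of *TAGL1* and −0.16 for *RIN* (BH-adjusted p = 0.0255 for *RIN*). The region of *NR* is shared with a second gene.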
